A study of Ovis aries with 6 samples.

Results

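The let-7 and miR-98 family was followed in longissimus muscle of 2 sheep breeds. Its members were taken by name from a table of mature miRNA counts: let-7a to let-7g, let-7i and miR-98, on either arm of the hairpin and under a sheep, rat, mouse or human prefix. This gave 26 names, 16 of the 5p arm and 10 of the 3p arm, out of 10430 names in all, and 42 of the 11161 rows of the table. Where a name had several rows, the row with the highest total count stood for it.

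Small RNA had been sequenced from 3 libraries of Qianhua Mutton Merino (QHMM) and 3 libraries of Small Tail Han (STH) sheep, kept under natural conditions. The labels give no treatment, age or genotype, and both breeds share the tissue. The labels do not tie the libraries to separate animals, so each p-value rests on library-to-library spread alone, which may be technical. The table holds between 8062231 and 10276427 counts per QHMM library and between 8681817 and 11282332 per STH library. Levels are given as CPM, a count divided by the library's total over 1 row per name and scaled to 1e6. All 19 marker names of muscle fibres (miR-1, miR-133, miR-206, miR-208b and miR-499) had counts, and their sum was at least 519492 CPM in QHMM and at least 451285 CPM in STH. Smooth muscle markers (miR-143 and miR-145) summed to between 32472 and 44574 CPM in QHMM and between 40233 and 53020 CPM in STH. Endothelial markers (miR-126) summed to between 12781 and 27421 CPM in QHMM and between 23285 and 25304 CPM in STH. Those of fibroblasts (miR-199a and miR-214) ranged from 1982 to 2767 CPM in QHMM and from 1887 to 3617 CPM in STH. The part of these cell types in the family's levels was not tested. Epithelial and neuronal markers were near 0, at no more than 32.2 and 7.02 CPM in QHMM and 22.0 and 6.56 CPM in STH.

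MiRNAs of the let-7 family are cut from hairpin precursors by Drosha and Dicer, and mostly 1 strand, the 5p arm, is loaded into Argonaute. The family shares its seed, bases 2 to 8, which pairs with target mRNAs, among them in mammals those of RAS genes, HMGA2 and LIN28. LIN28 in turn blocks the maturation of let-7 precursors in stem and progenitor cells, so the mature miRNAs are known to accumulate as cells differentiate. In mice, raised let-7 dampens insulin signalling in muscle.

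The 5p sequences carry what the members share and where they differ. They are given as the table lists them, 5′ to 3′ in DNA letters with the seed in capitals, in the order of their level in muscle.
let-7a: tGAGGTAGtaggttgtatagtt
let-7f: tGAGGTAGtagattgtatagt
let-7g: tGAGGTAGtagtttgtacagt
let-7b: tGAGGTAGtaggttgtgtggt
let-7i: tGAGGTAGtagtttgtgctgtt
let-7d: aGAGGTAGtaggttgcatag
let-7c: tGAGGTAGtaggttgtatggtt
miR-98-5p: tGAGGTAGtaagttgtattgtt
let-7e-5p: tGAGGTAGgaggttgtatagttg
All 9 carry the seed GAGGTAG, as do all 16 names of the 5p arm. Over the first 20 bases, 12 positions were the same in the 9 sequences and 8 varied, namely 1, 9, 11, 12, 16, 17, 18 and 19. Positions are counted from 1 at the 5′ end, and a change is written with the base of let-7a first. let-7f differs from let-7a by G12A alone, let-7c by A19G alone and let-7e by T9G alone. let-7b has A17G and A19G, let-7g has G12T and T18C, let-7d has T1A and T16C, and miR-98 has G11A and A19T. let-7i is farthest, with G12T, A17G, T18C and A19T. Members that differ at 1 or 2 bases can share reads where mismatches are allowed. The handling of such reads was not given in the sources used here.

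A sequence can stand under several names. That of let-7a stands in 4 rows, and the sheep row held 99.9% of their 500339 counts. For let-7i and let-7c the sheep row likewise held nearly all counts of 4 rows each (98124 of 98136 and 48373 of 48423). The counts of let-7e and miR-98 come from predicted sheep loci that carry a rat name. Each of these has a pair of loci with 1 sequence, on chromosome 14 for let-7e (415 and 373 counts over 6 libraries) and on chromosome X for miR-98 (485 and 477 counts). The paired loci held close to equal counts, and only the larger of each pair stands in the values that follow.

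Together, the 5p arm of the family was among the abundant miRNA groups of this muscle. It summed to 42392, 30458 and 31405 CPM in the QHMM libraries and to 43131, 35686 and 34116 CPM in the STH libraries. This is between 3.05% and 4.24% of the QHMM libraries and between 3.41% and 4.31% of the STH libraries. The mean was 34752 ± 6633 CPM in QHMM and 37644 ± 4816 CPM in STH (SD, n = 3 each), a ratio of 0.923 with overlapping libraries. The sign of this difference turned with the total used: its log2 ratio was -0.12, and 0.082 when miR-1, miR-133 and miR-451 were left out of the total.

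let-7a was the most abundant member, at place 14 among all names by mean CPM. It had 14226, 10009 and 10010 CPM in QHMM and 14026, 11375 and 11256 CPM in STH. The QHMM libraries held both the highest value and the lowest, so that the breeds overlapped. let-7f, which mammals carry both in a cluster with let-7a and, with miR-98, in HUWE1, had 8956, 6838 and 7370 CPM in QHMM and 10170, 8558 and 7907 CPM in STH. let-7g, which RefSeq places inside WDR82 in sheep, had 8186, 6628 and 6874 CPM in QHMM and 9002, 7869 and 7281 CPM in STH. In both, STH replicate 1 was highest and QHMM replicate 2 lowest by CPM, and the breeds overlapped. The highest and lowest libraries of a member can change with the scaling. The factors of the breed fit were 1.11 for QHMM replicate 1 and 0.894 for QHMM replicate 2.

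let-7b, which in mammals lies in a cluster with a let-7a gene, had 4699, 2387 and 2976 CPM in QHMM and 3672, 2895 and 3021 CPM in STH. QHMM replicate 1 lay above all other libraries. let-7i, which stands alone rather than in a cluster, had 2900, 2143 and 1804 CPM in QHMM and 2712, 2106 and 2272 CPM in STH. let-7d had 1910, 1506 and 1169 CPM in QHMM and 2258, 1884 and 1309 CPM in STH, so that replicate 3 was lowest within each breed. let-7c, which neighbours miR-99a, had 1473, 919 and 1177 CPM in QHMM and 1253, 967 and 1039 CPM in STH. These 4 members had overlapping breeds as well.

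miR-98 and let-7e were far lower. miR-98-5p had 12.3, 8.97 and 10.5 CPM in QHMM and 14.3, 12.3 and 10.5 CPM in STH, with between 50 and 105 counts per library. let-7e-5p had 14.8, 8.07 and 6.18 CPM in QHMM and 8.20, 11.2 and 10.5 CPM in STH. QHMM replicate 1 was highest for let-7e, while for miR-98 STH replicate 1 was. Since let-7e is 1 base from let-7a, and let-7a had 499809 counts against 415 of let-7e-5p, the level of let-7e can depend on how near matches were assigned, which was not tested.

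**Figure D1:**
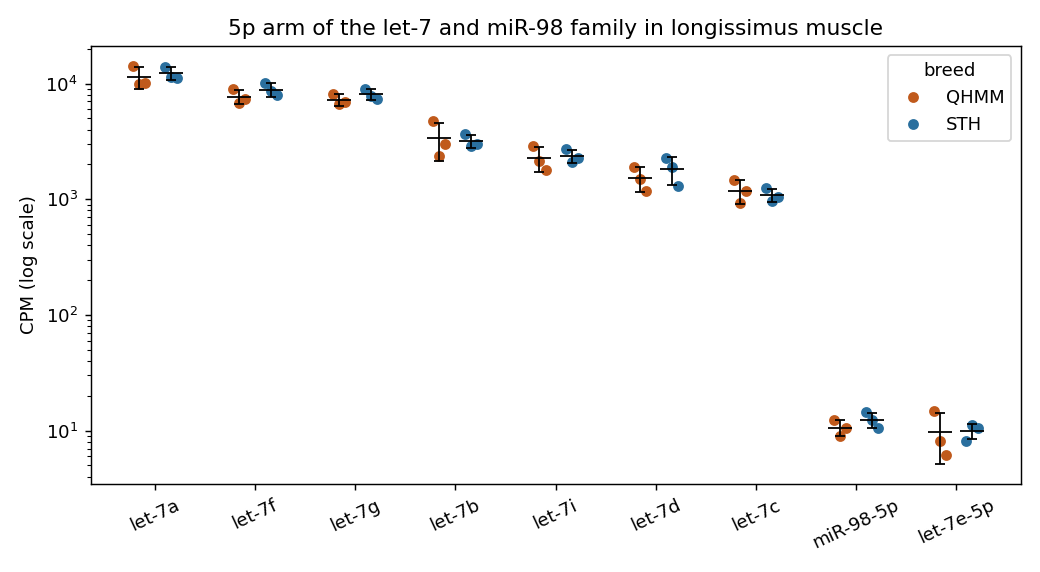
CPM (log scale) of the 5p arm of each member in QHMM (left, orange) and STH (right, blue) muscle. Each point is 1 library, and black lines give the mean and SD over the 3 libraries of a breed. From let-7c (mean 1138 CPM over 6 libraries) to miR-98-5p (11.5 CPM) the level drops by a factor of 98.9, the geometric mean of the ratios within libraries. Only the larger of the paired miR-98 loci is counted (485 counts, against 477 at the other). With both summed, the drop would be smaller.

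The order of the members was nearly the same in every library. let-7a was above let-7f in 6 of 6 libraries (1.42-fold on average), let-7f above let-7g in 6 of 6 (1.08-fold), let-7g above let-7b in 6 of 6 (2.38-fold), let-7b above let-7i in 6 of 6 (1.39-fold) and let-7i above let-7d in 6 of 6 (1.41-fold). let-7d was above let-7c in 5 of 6 libraries, and in QHMM replicate 3 it was not. miR-98-5p was above let-7e-5p in 4 of 6, equal to it in STH replicate 3 (83 counts each) and below it in QHMM replicate 1. This last order uses the larger of each pair of loci. Read across libraries rather than within each, only the steps from let-7g to let-7b and from let-7c to miR-98-5p left no overlap. Levels of different miRNAs also carry how well each sequence is ligated and amplified, which was not measured here.

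Within the family the shares were steady. let-7a took 32.8% ± 0.850 of the 5p counts in QHMM and 32.5% ± 0.566 in STH (SD, n = 3 each). let-7f took 22.4% ± 1.17 in QHMM and 23.6% ± 0.403 in STH, and let-7g 21.0% ± 1.45 in QHMM and 21.4% ± 0.594 in STH. let-7a, let-7f and let-7g together made up 74.0% to 77.9% of the family in each library. let-7b varied more, from 7.84% in QHMM replicate 2 to 11.1% in QHMM replicate 1. No share separated the breeds, since QHMM and STH libraries overlapped for each of the 9 members. A share within the family does not depend on the total of the library.

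**Figure D2:**
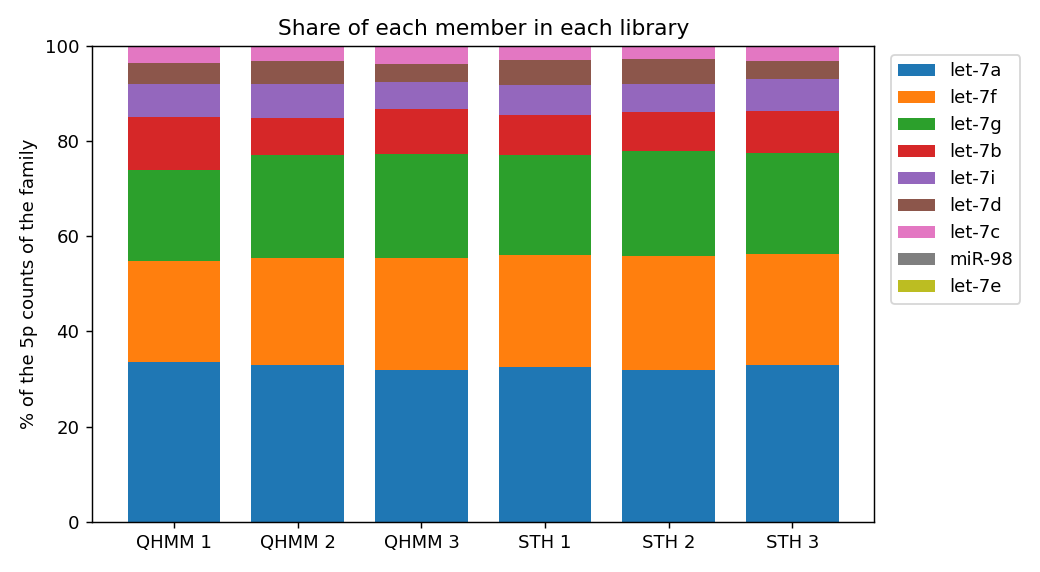
Share of each member among the 5p counts of the family (% of counts, 1 stacked bar per library, QHMM left and STH right). let-7a takes 31.9% to 33.6% in every library, and miR-98 and let-7e are too small to see, at no more than 0.035%.

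The spread of the abundant members was moderate for this muscle. Among 68 names with a mean of at least 1000 CPM, the median coefficient of variation over the 6 libraries was 21.0%, and over the 7 family members among them it was 17.6%. let-7g varied least (11.6%) and let-7d most (24.8%), closely followed by let-7b (24.7%). The highest library exceeded the lowest 1.36-fold for let-7g and 1.97-fold for let-7b. Both breeds are pooled in these values, and they are a description with no test.

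The members also differed in how alike they varied over the libraries. The measure was the root mean square difference of log2 CPM over 6 libraries, each name centred on its mean. let-7f and let-7g were the closest pair, at 0.039, and let-7a lay at 0.085 from let-7f and from let-7i. let-7d and let-7c were the farthest apart, at 0.34, followed by let-7b and let-7d at 0.31. let-7a and let-7d, which RefSeq lists as neighbours in sheep, lay at 0.21, farther apart than let-7a and let-7g (0.088), which are not neighbours. These distances are a description over 6 libraries, and within each library the members share its total. Of the 21 ratios between the 7 abundant members, 1 did not overlap between the breeds: let-7f per let-7c was 6.08, 7.44 and 6.26 in QHMM and 8.12, 8.85 and 7.61 in STH. It was singled out after the values were seen and was not tested, while among all names tested the CPM of 17.2% did not overlap between the breeds.

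The comparison of the breeds asks whether any member differs between QHMM and STH muscle, and no member passed. After a filter on low counts, 14 of the 26 names were tested, and the other 12, with 47 counts or fewer over all libraries, were not. Those are 6 names of the 5p arm that repeat a sheep name under another species and 6 names of the 3p arm. With edgeR 0 of the 14 members passed an adjusted p of 0.05, beside 28 of 1274 names tested (2.20%; 24 lower in QHMM, 1.88%, and 4 higher, 0.314%), and 0 had an unadjusted p under 0.05, beside 13.7% of all names. DESeq2 called 0 members as well, with 0 at an unadjusted p under 0.05. At the share of all names, fewer than 1 call among 14 members would be found, so that a count of 0 does not set the family apart. The CPM of the breeds overlapped for all 14. The median of the absolute log2 fold change was 0.11 over the members and 0.36 over all names tested, and the median standard error was 0.29 and 0.39.

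The widest gaps in the abundant 5p members were about the size of their standard errors and did not pass the test. let-7d had a log2 fold change of -0.26, QHMM over STH, with a standard error of 0.27 and a 95% interval of -0.84 to 0.31 (adjusted p = 0.706 from edgeR). let-7f had -0.22, with an interval of -0.64 to 0.21 (adjusted p = 0.676). For let-7a the value was -0.11 (-0.54 to 0.31), for let-7g -0.17 (-0.59 to 0.26) and for let-7i -0.062 (-0.55 to 0.43). let-7b and let-7c had values of 0.037 (-0.47 to 0.54) and 0.11 (-0.38 to 0.60). None of these members rose or fell by the test. The signs were mixed, 9 negative and 5 positive over the 14 members, with a median of -0.048, beside 0.031 over all names.

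The less abundant members gave wider intervals. miR-98-5p had -0.24 (-0.91 to 0.43) and let-7e-5p -0.072 (-0.86 to 0.71). The largest value on the 3p arm was that of miR-98-3p, 0.30 (-0.52 to 1.13, adjusted p = 0.766 from edgeR). let-7a-5p, a mouse-named row with the sequence of let-7a and 408 counts, had -0.018 (-0.80 to 0.77). let-7e-3p had 0.0028 (-0.83 to 0.83), let-7f-1-3p 0.11 (-0.68 to 0.91) and let-7g-3p -0.033 (-0.99 to 0.92).

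Summed markers of red blood cells and of leukocytes did not overlap between the breeds, while the sums of the other marker lists overlapped. Taken singly, 17.2% of all names tested did not overlap either, but a share of single names is no background for sums of several names. The part of blood cells in these values was not tested. All 7 names of red blood cells (miR-451, miR-144 and miR-486) had counts and summed to between 18967 and 84308 CPM in QHMM, highest in replicate 3, and to between 7300 and 13838 CPM in STH. The 7 leukocyte names (miR-223, miR-142 and miR-150) summed to between 1765 and 1942 CPM in QHMM and between 1165 and 1425 CPM in STH. The names of this list did not all go 1 way. miR-150 averaged 968 CPM in QHMM and 787 CPM in STH. By contrast, miR-223-3p averaged 148 CPM in QHMM and 170 CPM in STH, and miR-223-5p 3.15 and 3.72 CPM. Each of these names overlapped between the breeds. Without QHMM replicate 3, edgeR again called 0 members, and the log2 fold change turned to 0.059 for let-7i (-0.062 with that library), 0.14 for let-7e-5p (-0.072) and 0.069 for let-7g-3p (-0.033). That of let-7d was -0.13 in place of -0.26, and that of let-7a -0.053 in place of -0.11. Such turns were not particular to this library. Without QHMM replicate 1, the values turned to -0.24 for let-7b, -0.036 for let-7c, -0.48 for let-7e-3p and -0.043 for let-7f-1-3p. The median over the members tested was -0.25 without QHMM replicate 1 and 0.076 without QHMM replicate 3, in place of -0.048. In bulk muscle, fewer cells of a type and less RNA per cell cannot be told apart.

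**Figure D3:**
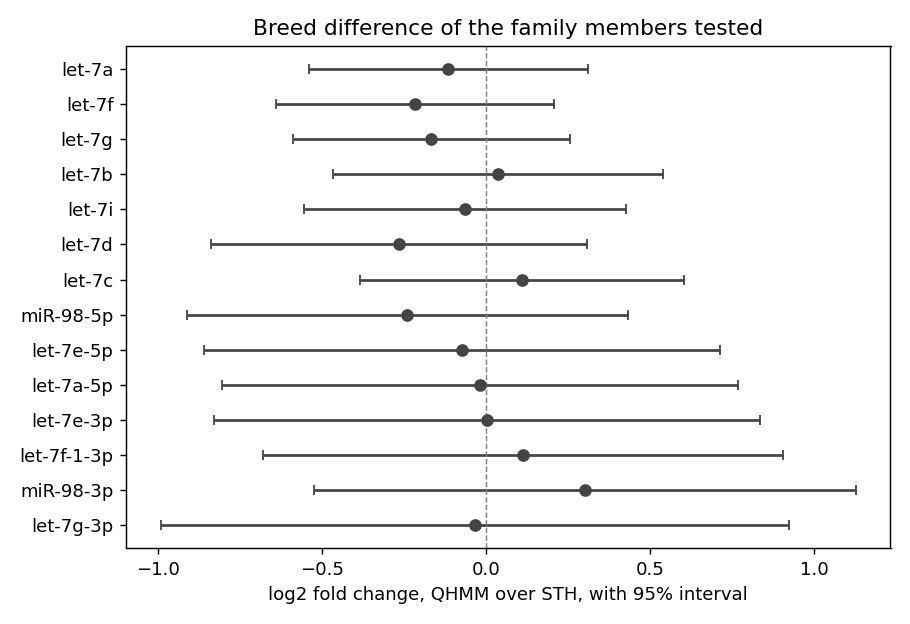
Log2 fold change of QHMM over STH with its 95% interval for the 14 family members tested with edgeR, in the order of their level from the top. All 14 intervals include 0, and that of let-7a (-0.54 to 0.31) is narrower than that of let-7g-3p (-0.99 to 0.92).

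The 3p arms give the other strand of the same hairpins. These are the 3p sequences with enough counts to be tested, with bases 2 to 8 in capitals.
let-7e-3p: cACTATACggcctcctagctttc
miR-98-3p: aCTATACAacttactactttcc
let-7f-1-3p: cTATACAAtctattgccttcc
let-7g-3p: cTGTACAGgccactgccttgc
Unlike the 5p arm, the 10 names of the 3p arm fall into 6 seeds as their rows are listed. This count rests on where each row starts. The rows of let-7e-3p and miR-98-3p begin before the ctatac that opens several other 3p rows. Which start most reads had was not measured. TATACAA is shared by let-7a-3p, let-7b-3p, let-7c-2-3p and let-7f-1-3p, and TGTACAG by let-7a-2-3p and let-7g-3p. Over the whole family, 0.045 ± 0.0072 counts of the 3p arm were found per 100 counts of the 5p arm in QHMM and 0.039 ± 0.0078 in STH (SD, n = 3 each).

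let-7e and miR-98 stood apart from the other members in this ratio. let-7e had 47.3, 37.8 and 47.8 counts of the 3p arm per 100 of the 5p arm in QHMM and 56.7, 31.9 and 43.4 in STH. miR-98 had 44.1, 40.0 and 37.2 in QHMM and 21.0, 19.7 and 47.0 in STH. In each of the other 7 members the ratio was at most 0.058 in any library. For these 7 the main 5p row carries a sheep name and the 3p rows a rat or human name. Both arms of let-7e and miR-98 instead stand at predicted sheep loci. The ratios are thus unlike in source, and the part of this in the contrast was not tested. The breeds overlapped for both let-7e and miR-98. For both, the 3p row and the larger 5p row belong to different loci of the pair, and the ratio rests on that choice: with the counts of all rows of a name summed, its mean over 6 libraries was 23.1 for let-7e and 18.6 for miR-98, in place of 44.1 and 34.8.

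let-7e-3p had 7.02, 3.05 and 2.96 CPM in QHMM and 4.64, 3.56 and 4.54 CPM in STH. miR-98-3p had 5.43, 3.59 and 3.90 CPM in QHMM and 3.005, 2.43 and 4.92 CPM in STH. In both, QHMM replicate 1 was the highest library, and the breeds overlapped.

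In counts, let-7f-1-3p was the leading 3p arm of the abundant members, with 39, 21 and 26 counts in the QHMM libraries, against 25, 28 and 27 in the STH libraries. For let-7g-3p the counts were 24, 8 and 13 (QHMM) and 21, 8 and 18 (STH). The most abundant member, let-7a, had 8 counts under both of its 3p names over all 6 libraries, beside 500217 counts of its 5p names, and let-7b and let-7d had 3 each. These 3p names of the abundant members stand in the table under other species, while let-7e-3p and miR-98-3p stand at predicted sheep loci with the sequence found there. Where a name had 0 counts in a library, a level of up to 0.378 to 0.538 CPM is allowed by the depth (3 counts, counting error only).

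**Figure D4:**
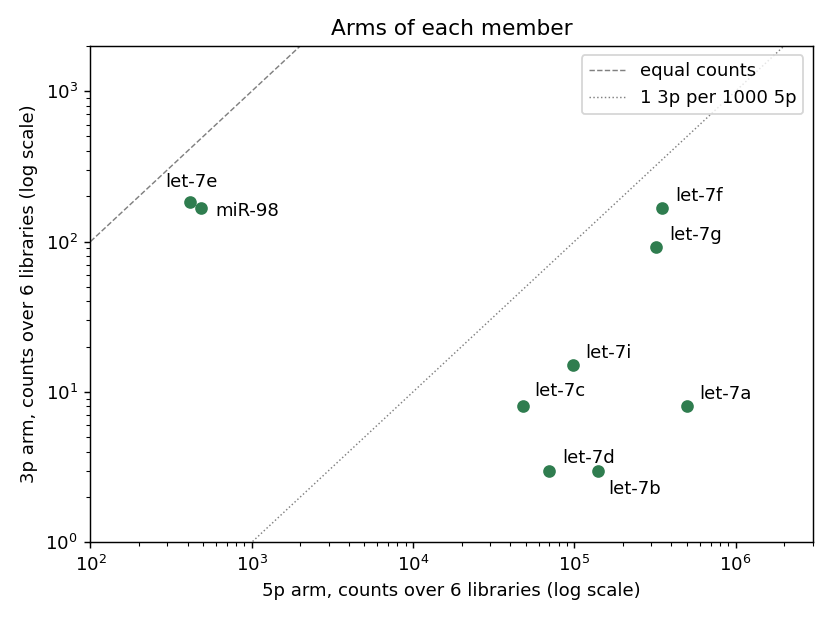
Counts of the 3p arm against counts of the 5p arm for each member, both summed over its names and 6 libraries, on log scales. The dashed line marks equal counts and the dotted line 1 count of the 3p arm per 1000 of the 5p arm. let-7e (184 against 415) and miR-98 (166 against 485) lie near the dashed line, and the 7 abundant members lie below the dotted one.

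The 3p arm of miR-98 is listed with more than 1 start. At the sheep locus its row begins 1 base before the mouse and human rows of the same name, which moves the seed from TATACAA, that of the mouse row, to CTATACA.
miR-98-3p, sheep locus: aCTATACAacttactactttcc
miR-98-3p, mouse name: cTATACAActtactactttcct
The row of the sheep locus had 166 counts over 6 libraries, the mouse row 8 and the human row 1. Which of these starts most reads had was not measured, since the table gives counts per row and not per read end.

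In mammals several let-7 genes lie in clusters with miR-99, miR-100 and miR-125, whose mature forms have other seeds and act on other targets. Of 12 such names, 9 were tested and 0 passed an adjusted p of 0.05 with edgeR (2.20% of all names), with 0 at an unadjusted p under 0.05. miR-125b averaged 8925 ± 2162 CPM in QHMM and 7989 ± 1270 CPM in STH (SD, n = 3 each), a log2 fold change of 0.14 (95% interval -0.32 to 0.60). miR-99a, the neighbour of let-7c in the RefSeq sheep annotation, averaged 5016 ± 2867 CPM in QHMM and 5115 ± 1143 CPM in STH. miR-125a-5p, from the cluster of let-7e, averaged 1678 ± 266 CPM in QHMM and 1939 ± 362 CPM in STH, a log2 fold change of -0.22 (-0.71 to 0.27). The partners with the widest gaps were rarer and are named after their values were seen. miR-100-3p had 6.36, 3.95 and 6.72 CPM in QHMM and 8.60, 7.94 and 9.08 CPM in STH, with no overlap, as in 17.2% of all names. Its log2 fold change was -0.60 (-1.31 to 0.11), and that of miR-100-5p was -0.55 (-1.33 to 0.23), with overlapping breeds.

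Mature levels within a cluster were far from equal. miR-99a was 5.22, 5.84 and 1.69 times as high as let-7c in QHMM and 3.26, 5.09 and 6.10 times in STH, with QHMM replicate 3 lowest. Without that library the log2 fold change of miR-99a was 0.31 in place of -0.047, and it did not pass the test. miR-125a-5p was between 134 and 245 times as high as let-7e-5p in QHMM and between 156 and 285 times in STH. miR-99b-5p was between 14.8 and 26.5 times as high as let-7e-5p over the 6 libraries. The ratios to let-7e-5p use only the larger of its paired loci (415 counts, against 373 at the other). With both loci summed, they would be lower. How near matches were assigned and how well each sequence was ligated can also enter these ratios, which was not tested.

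The names whose level followed that of the family most closely came in part from these clusters. Of 195 names outside the family with a mean of at least 100 CPM, the 3 nearest to the summed 5p arm were miR-125a-5p, at a root mean square difference of 0.074, miR-99b-5p at 0.079 and miR-24-3p at 0.081, where the median over the 195 was 0.35. miR-125a and miR-99b are the partners of let-7e, the least abundant member, and miR-24 is of another cluster and seed. The 3 were picked from 195 for their likeness over 6 libraries, so that this is a description with no test.

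**Figure D5:**
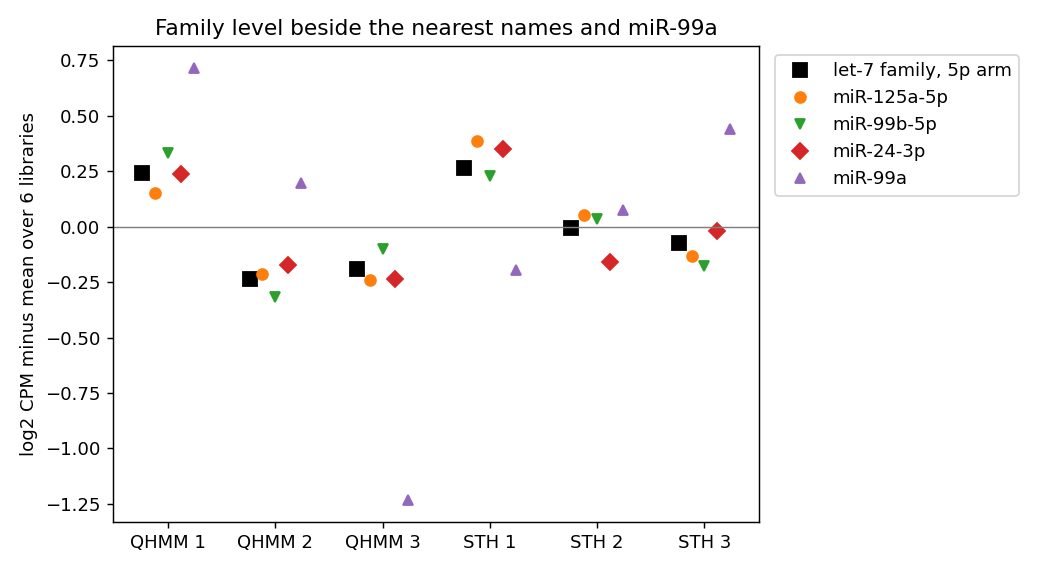
Log2 CPM minus its mean over 6 libraries for the summed 5p arm of the family (black squares), the 3 nearest names and miR-99a, with QHMM libraries left and STH libraries right. The 3 nearest names stay close to the family in each library, and miR-99a falls to -1.23 in QHMM replicate 3, where the family is at -0.19.

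Few other rows carried the let-7 seed. Outside the family these were let-7k, miR-1961, miR-4500 and 2 predicted loci with 1 sequence, with between 6 and 25 counts per QHMM library and between 37 and 57 per STH library, at most 0.018% of the counts with this seed. let-7k is a mouse name, printed since it is the largest of them.
let-7k: tGAGGTAGgaggttgtgtg
Over its 19 bases it differs from let-7b by T9G alone and from let-7e by A17G and A19G. Its counts were 14, 3 and 9 (QHMM) and 37, 25 and 23 (STH). The breeds did not overlap, as in 17.2% of all names tested. Its log2 fold change was -1.72 (standard error 0.46, 95% interval -2.72 to -0.72) and did not pass (adjusted p = 0.0801 from edgeR). Whether these reads are let-7 reads with a mismatch was not tested. miR-202-3p, whose seed GAGGTAT differs from that of let-7 in its last base, had 0 counts in each QHMM library and 4, 2 and 9 in STH. These few counts fell below the filter, so that miR-202-3p was not tested.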

How the data were processed

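Longissimus small RNA was selected on a gel and read on an Ion Proton. The deposited table holds unnormalized counts for each mature miRNA, with 1 column for each of 6 libraries. Oar_v3.1 (build) and DESeq (tool) stand in the submitters' processing notes. For the aligner, the miRNA caller and multiply matching reads, the handling was not given in the sources used here, and members that differ at few bases can share reads.

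After removal of species prefixes, each name was represented by its row of highest total. QHMM was set against STH in edgeR 4.0.16 (R 4.3.3, quasi-likelihood, robust fit, TMM, filterByExpr, Benjamini-Hochberg adjustment over 1274 names). Fold changes are log2 of QHMM over STH, and standard errors and 95% intervals were derived from the F statistic. DESeq2 1.42.0, other factors and filters, other rows per name, a replicate block and leaving out each library were alternatives. The fit was tested on simulated data. Replicates of 1 breed differed by a chi-square per degree of freedom of at least 80.3, so that none was a copy of another. This cannot tell separate animals from repeat libraries of 1 animal. Gene neighbours come from RefSeq (ARS-UI_Ramb_v3.0), used for names only. Levels and figures were made with Python 3.11.15, pandas 2.3.3, numpy 2.4.6, scipy 1.17.1 and matplotlib 3.10.9.

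Described in full were, for each member, the 5p and the 3p name with the highest total, and any member past the threshold. Members, lists and rules were chosen with earlier results of these data known.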

Additional observations from a re-analysis of the deposited data

How the results depend on the processing

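The count of family members that differ between the breeds was 0 in the 15 alternatives run. Over all names, 28 calls among 1274 tested became 64 among 9972 without a filter and 8 among 930 where every library needed 10 counts. There were 49 among 1274 with DESeq2 and 6 among 487 with known names only. With each library left out, 16 to 35 names were called. These were 16 of 1368 without QHMM replicate 3, 16 of 1345 without STH replicate 3 and 18 of 1373 without STH replicate 2. The number tested thus differs between most settings, and the cause of the changes was not tested. The replicate block gave 26 names and 0 members. The deviations of same-numbered samples had correlations of 0.064, 0.24 and 0.12, for each sample the highest it had. With so few libraries, each centred on the mean of its breed, this cannot show pairing, and no label pairs them.

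Some log2 fold changes near 0 turned, for which the cause was not tested. let-7e-3p was -0.011 with upper-quartile factors, -0.022 with the stricter filter, -0.067 with the replicate block, -0.0086 with summed rows, -0.016 with 1 row per sequence and -0.014 with known names only. With no filter, let-7i and let-7e-5p were 0.017, let-7g-3p 0.042 and miR-99a 0.042. Leaving out each library gave log2 fold changes of -0.24 to 0.17 for let-7b, -0.22 to 0.059 for let-7i, -0.036 to 0.19 for let-7c, -0.46 to 0.14 for let-7e-5p, -0.48 to 0.19 for let-7e-3p, -0.043 to 0.31 for let-7f-1-3p, -0.41 to 0.20 for let-7g-3p, -0.022 to 0.26 for miR-125b and -0.40 to 0.31 for miR-99a. let-7a, let-7f, let-7g, let-7d, miR-98-5p, miR-98-3p, let-7k and miR-125a-5p kept their sign in the alternatives run for each, though not their size: without 1 library, let-7a ran from -0.26 to -0.035, let-7f from -0.30 to -0.14, let-7g from -0.25 to -0.11, let-7d from -0.46 to -0.11, miR-98-5p from -0.36 to -0.15, miR-98-3p from 0.13 to 0.63, let-7k from -2.13 to -1.47 and miR-125a-5p from -0.34 to -0.099. The adjusted p of let-7k ran from 0.0559 to 0.214. Without 1 library, the log2 ratio of the summed family ran from -0.28 to -0.0062 and the share of let-7a from 32.5% to 32.8%. Depth limits the 3p names and let-7k.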
